A study of Mus musculus with 2 samples.

Results

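A set of 9 genes of the complement system was followed across the brain cell classes of these libraries: C1qa, C1qb, C1qc, C3, C4b, Cfp, C3ar1, C5ar1 and Serping1. They were chosen by symbol, and all 9 of 9 were found once each among the 26033 genes listed in both matrices. The data are single-cell RNA counts from whole mouse brain, with 1 library per genotype. Control mice were Csf1rfl/fl, with a floxed gene of the CSF1 receptor, on which microglia and other macrophages depend. Mutant mice were Mrc1Cre:Csf1rfl/fl, with the same floxed gene and Cre driven from Mrc1, which encodes the mannose receptor of border macrophages. The series title names interleukin-34, a ligand of the CSF1 receptor, the perivascular macrophages that need it, and vascular function in the brain. The labels give neither age nor number of animals, and with 1 library per genotype no difference below has a spread between animals beside it.

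Both libraries hold sorted mural cells and fibroblasts, endothelial cells, astrocytes, border-associated macrophages (BAMs) and microglia, per the labels. The control matrix held 8739 barcodes with 85716531 unique molecular identifiers (UMIs, each standing for 1 captured RNA molecule), and the mutant matrix held 8735 barcodes with 82806348 UMIs. Cells were clustered without the complement genes named above, and clusters were named from marker lists, written here as "X-like". The named classes held, in control and mutant, 3241 and 3463 microglia-like, 296 and 115 BAM-like, 663 and 241 astrocyte-like, 634 and 1071 choroid plexus epithelium-like, 124 and 175 endothelial-like, 47 and 87 ependymal-like, and 48 and 71 fibroblast-like cells. No cluster was named pericyte-like or smooth muscle-like, and a shallow cluster of 225 and 274 cells with microglial markers stayed unnamed. Levels are CPM, UMIs of the gene in every 1000000 UMIs of the class, and their 95% intervals cover counting error only. The targeted gene, Csf1r, stood at 1443 CPM in control and 1192 CPM in mutant BAM-like cells and at 2345 and 1859 CPM in microglia-like cells. The chemistry reads transcript 3′ ends, possibly beyond the deleted part, so Csf1r levels cannot be taken as a measure of the deletion. The 115 mutant BAM-like cells are those that were captured.

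The fibroblast-like cluster was mixed, although all 8 of 8 fibroblast markers marked it. A gate on each cell asks for 3 or more markers of a class with a UMI and a larger share of that list than of any other, and 82 of the cluster's 119 cells, 38 control and 44 mutant, passed it for fibroblasts. The cluster's RNA held neutrophil markers, 6 genes summed, at 52683 CPM in control cells and 65850.5 CPM in mutant cells. Values for this class are therefore those of the mixed whole cluster unless gated cells are named. The gated cells were not alike in both libraries: Col1a1, a collagen gene chosen here after its values were seen, was at 1280.2 CPM in control and 30233 CPM in mutant gated cells, while the fibroblast marker Dcn was at 9029.9 and 8653 CPM. The part of that difference in the gated values below was not tested.

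Complement is a cascade of blood and tissue proteins that tags targets and calls in phagocytes. C1q, a multimer of the products of C1qa, C1qb and C1qc, recognises the target and starts the classical pathway, in which C4 and then C3 are cleaved and C3 fragments coat the surface. Properdin, from Cfp, holds together the C3-cleaving enzyme of the alternative pathway. The small fragments C3a and C5a act on the receptors C3ar1 and C5ar1, and the C1 inhibitor, from Serping1, shuts off the proteases bound to C1q. In the brain, microglia are the known main source of C1q, and C1q and C3 take part in the removal of synapses.

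The 3 C1q genes lie together on chromosome 4, on the minus strand, in a stretch of 18675 bases (GRCm38): C1qb at 136880129 to 136886187, C1qc at 136889804 to 136893065 and C1qa at 136895917 to 136898803. C3 lies on chromosome 17 at 57203970 to 57228136 and C4b on chromosome 17 at 34728380 to 34743882. Cfp lies on chromosome X at 20925454 to 20931555, C3ar1 on chromosome 6 at 122847138 to 122856161, C5ar1 on chromosome 7 at 16246743 to 16259540 and Serping1 on chromosome 2 at 84765387 to 84775444, all on the minus strand. The only annotated gene that overlaps one of them is the microRNA gene Mir6978 within C3. C4b has a close paralog, C4a, which was not analysed here: 20.2% of the 90-base windows in the last 500 bases of the C4b transcript are identical in C4a, so part of the reads of the pair could not be told apart and C4b values are uncertain to that extent. How reads that fit both genes were assigned is not given in the sources used here.

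Promoter sequences from RefSeq (GRCm38.p6) were found for 6 of the 9 genes. C1qa, C4b and Serping1 had no entry. The windows are the 250 bases before RefSeq's start, which differs from the GENCODE gene start in 4 of the 6. It lies 151 bases inside the GENCODE gene in C1qc, 202 in C5ar1 and 4 in C3ar1, so these windows reach into the gene and are not shown. The windows of C1qb, read mainly in macrophages, and of C3, which was not, lie wholly before the GENCODE gene and are shown 5′ to 3′ on the gene's strand. Capitals mark matches to the core of the ETS motif bound by PU.1, AGGAAGT, on either strand, and in C3 to the C/EBP motif TTGCGNAA. The motifs were picked after the sequences had been read.
C1qb, chr4:136886201-136886450: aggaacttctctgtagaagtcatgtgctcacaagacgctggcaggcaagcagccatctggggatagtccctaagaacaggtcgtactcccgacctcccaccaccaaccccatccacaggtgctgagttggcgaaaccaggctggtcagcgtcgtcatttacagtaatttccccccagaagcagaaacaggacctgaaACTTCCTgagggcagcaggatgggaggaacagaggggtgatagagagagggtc
C3, chr17:57228137-57228386: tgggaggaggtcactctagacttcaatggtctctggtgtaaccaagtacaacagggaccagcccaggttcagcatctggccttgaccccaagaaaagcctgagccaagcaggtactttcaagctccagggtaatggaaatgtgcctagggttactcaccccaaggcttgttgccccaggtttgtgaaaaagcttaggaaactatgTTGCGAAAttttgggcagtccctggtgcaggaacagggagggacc
The ETS core began 53 bases before RefSeq's start of C1qb and was not found in this window of C3, C3ar1 or Cfp. The windows of C1qc and C5ar1, which reach into the gene, held 1 and 2 matches. It was found in 7.69% of all 32851 RefSeq promoters of this length. The C/EBP motif began 45 bases before RefSeq's start of C3, was not found in the window of the other 5, and was present in 0.670% of all promoters. A match describes letters and is not a measured binding site.

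C1q was read at a high level in both macrophage classes, and its level was nearly the same in both genotypes. In microglia-like cells C1qa was at 7804 CPM (7773 to 7835) in the control library and 7876 CPM (7845 to 7907) in the mutant library. C1qb was at 7175 and 7007 CPM and C1qc at 5331 and 5176 CPM. In BAM-like cells C1qa was at 7237 CPM (7145 to 7329) in the control library and 7239 CPM (7077 to 7403) in the mutant library. C1qb there was at 5648 and 5491 CPM, and C1qc at 4955 and 4738 CPM. The mutant to control ratios of these 6 pairs lay between 0.956 and 1.01, and under the alternative settings between 0.937 and 1.05. C1qa UMIs were present in 99.6% of control and 99.4% of mutant microglia-like cells and in 99.3% and 98.3% of BAM-like cells.

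The chains were present in different proportions in the macrophage classes. Of all C1q UMIs of microglia-like cells, C1qb made up 35.3% in the control and 34.9% in the mutant. Of those of BAM-like cells it made up 31.7% (31.3 to 32.04) and 31.4% (30.8 to 32.1). BAM-like cells of both libraries thus carried relatively less C1qb and more C1qa, the latter at 40.6% and 41.4% against 38.4% and 39.3%. Microglia-like cells held 86.4% of all C1qa UMIs of the kept control cells and 92.02% of those of the mutant, and BAM-like cells held 8.51% and 2.84%. The lower BAM-like share of the mutant C1qa pool stood beside fewer BAM-like cells captured, 115 against 296, with a C1qa ratio of 1.0003 within them.

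A gene was called measured in a class when the 2 libraries together held 50 or more of its UMIs. In microglia-like cells 7 of the 9 genes were measured and 0 of the 7 differed by 1.5-fold or more, beside 7.0% of all 12525 measured genes (2.11% higher and 4.89% lower in the mutant). In BAM-like cells the count was 0 of 7, beside 10.4% of 8128 genes (4.68% higher and 5.72% lower). The median ratio of the 7 genes was 0.987 in microglia-like cells and 1.0003 in BAM-like cells, beside 0.984 and 1.01 over all measured genes.

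**Figure D1:**
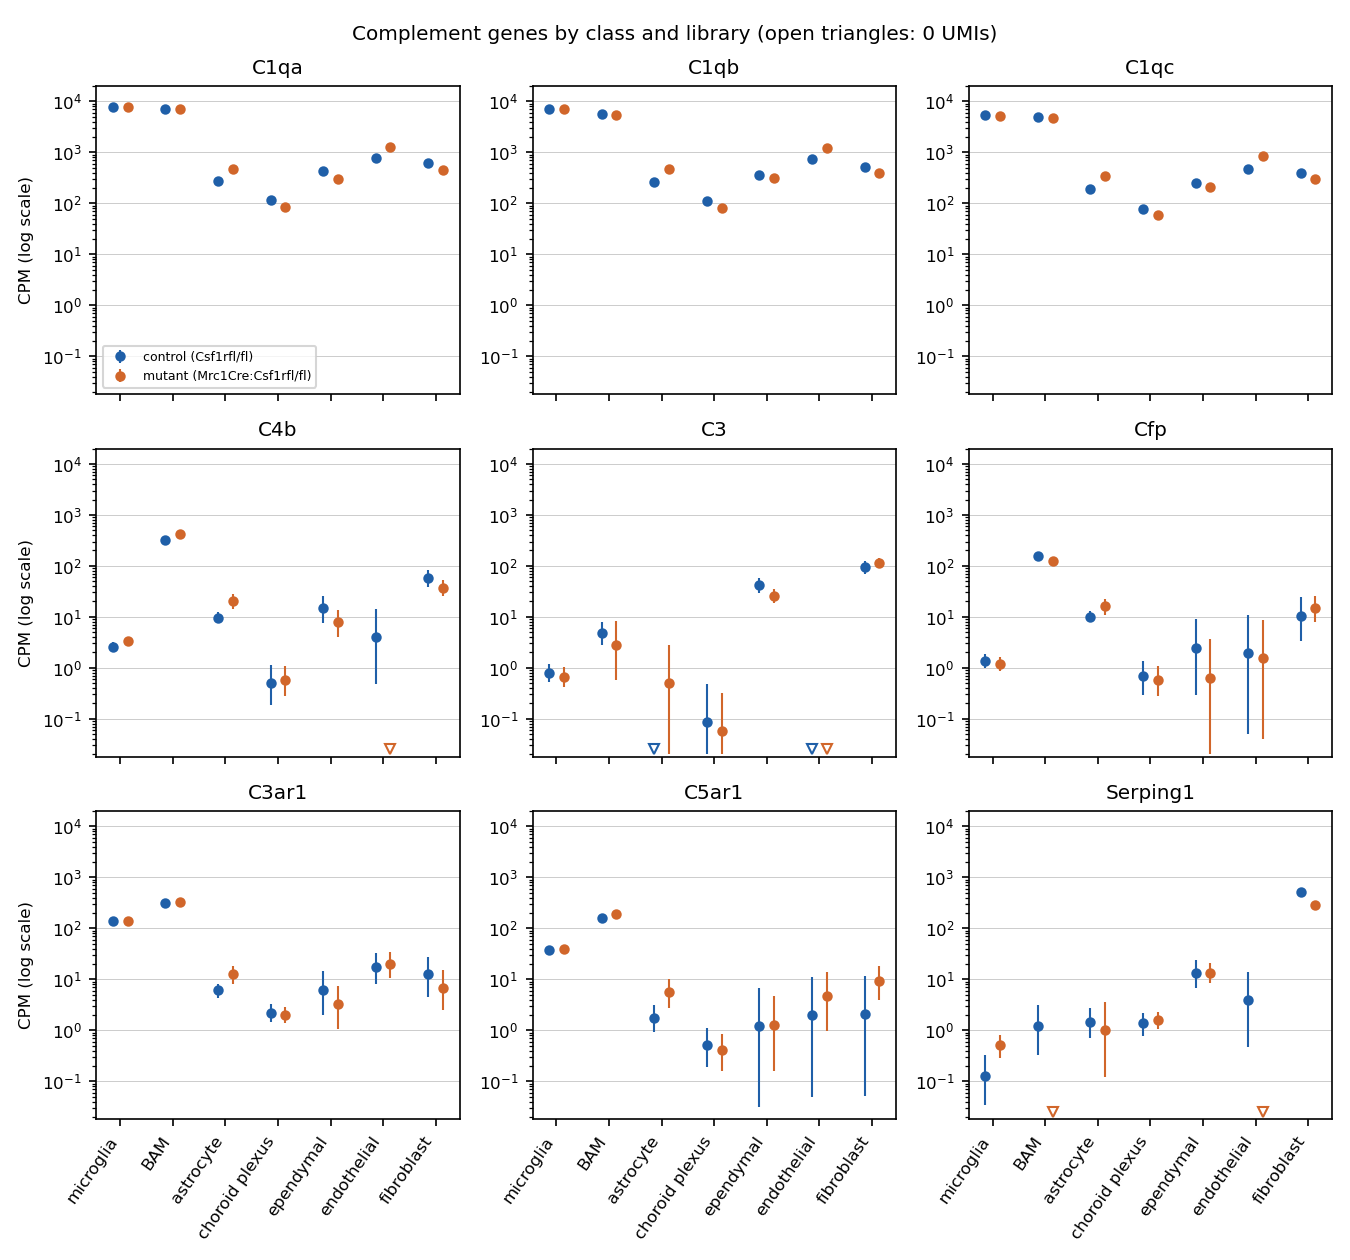
CPM (log axis) of the 9 complement genes in 7 cell classes, in the control (blue) and mutant (orange) library, with 95% counting intervals; open triangles are values of 0 UMIs. C1q stands between 4738 and 7876 CPM in microglia-like and BAM-like cells of both libraries, C4b, Cfp, C3ar1 and C5ar1 are highest in BAM-like cells, and Serping1 in the fibroblast-like cluster.

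Within microglia-like cells C1q varied more between clusters than the class level did between genotypes. C1qa was lowest in cluster 4, led by Ikzf1 and Csmd3, at 6462 CPM in control cells and 4864 CPM in mutant cells, and highest in cluster 5, led by Fcrls and Trem2, at 9259 and 8999.7 CPM. The median cell of cluster 4 had 5454 UMIs in all and that of cluster 5 had 7520. The shallow cluster kept out of the class, at a median of 2525 UMIs, had C1qa at 3232 and 3229.6 CPM, a ratio of 0.999 (0.944 to 1.06). The mutant level of C1qa was lower in 4 of 6 clusters. The ratio was 0.753 (0.736 to 0.770) in cluster 4 and 1.09 (1.08 to 1.11) in cluster 6, led by Cd52 and Cd68. The clusters themselves were not stable: with another clustering seed there were 8, and the mutant level was lower in 4 of them. A shallow cluster, at a median of 2618 UMIs, then fell within the class and had its lowest C1qa, at 4127 and 3261 CPM. The largest cluster was not the same in the genotypes, being cluster 0 in the control (27.8% of control and 21.2% of mutant microglia-like cells) and cluster 1 in the mutant (17.3% and 29.8%). The part of this difference in the class level was not tested.

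Outside macrophages, UMIs of C1q were found in every class at a low and nearly constant number per cell. The median cell held 3 C1q UMIs, the 3 chains summed, in the astrocyte-like, choroid plexus epithelium-like and fibroblast-like cells of both libraries. It held 4 and 3 in ependymal-like and 3 and 2 in endothelial-like cells. The median macrophage held 141 to 179. This number did not follow depth: the median cell had 17068 UMIs in all in control choroid plexus epithelium-like cells and 3846 in control endothelial-like cells. C1qa UMIs were present in 68.8% of control and 63.9% of mutant astrocyte-like cells. After each cell was thinned to 2000 UMIs the shares were 30.03% and 32.8%, against 99.6% in thinned control microglia-like cells.

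**Figure D2:**
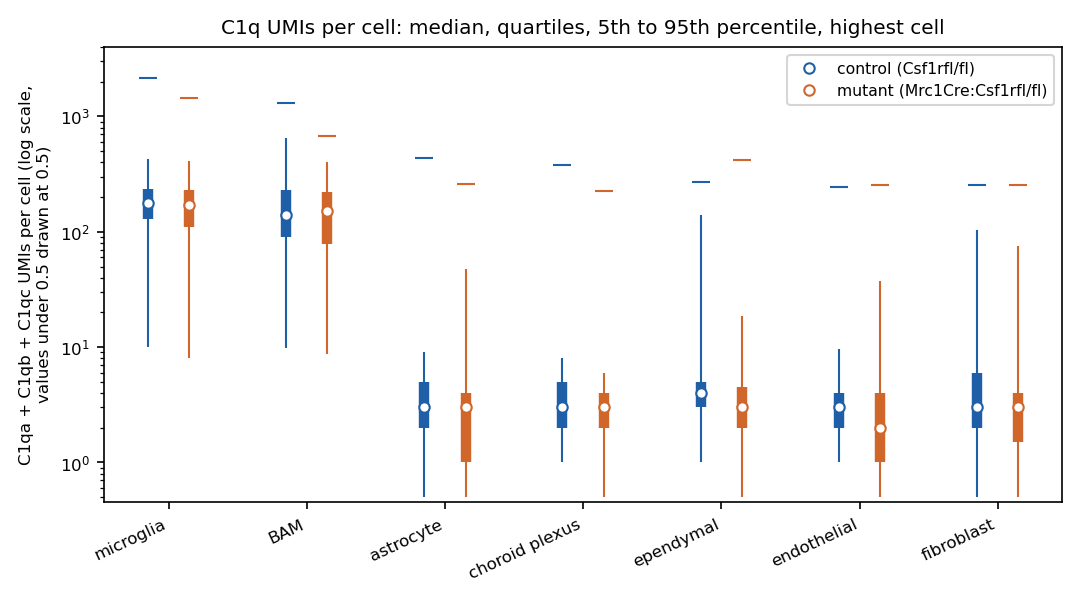
Summed C1qa, C1qb and C1qc UMIs per cell (log axis) by class in the control (blue) and mutant (orange) library: open circles are medians, thick bars quartiles, thin lines the 5th to 95th percentile and dashes the highest cell. Medians are 141 to 179 in the macrophage classes and 2 to 4 in all others, where single cells reach 228 to 435.

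In the astrocyte-like, endothelial-like, ependymal-like and fibroblast-like classes a few cells held most of the C1q UMIs. Astrocyte-like cells with 10 or more C1q UMIs numbered 25 of 663 in the control and 16 of 241 in the mutant, and they held 55.99% and 75.2% of that class's C1q UMIs. In endothelial-like cells 7 of 124 and 9 of 175 cells held 65.5% and 80.2%. In ependymal-like cells 3 of 47 and 5 of 87 held 79.3% and 80.9%. In the fibroblast-like cluster 5 of 48 and 7 of 71 held 79.8% and 83.8%. In choroid plexus epithelium-like cells such cells held less, 42.1% and 23.3%. Cells with 10 or more UMIs of the 10-gene microglial marker list, 57 control and 21 mutant astrocyte-like cells, held 58.01% and 75.7% of the C1q UMIs of their class. In the remaining cells 3.35 and 2.81 C1q UMIs were left per astrocyte-like cell, and 2.96 and 2.53 per endothelial-like cell.

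C1q also kept step with other macrophage transcripts. For 20 such transcripts, among them Ctss, Cx3cr1 and Tyrobp, the level outside macrophages was expressed as a percent of the microglia-like level. In control astrocyte-like cells these ranged from 2.80% to 6.59%, and C1qa stood at 3.48%, C1qb at 3.61% and C1qc at 3.50%. In mutant astrocyte-like cells the transcripts ranged from 5.70% to 10.7% and C1qa stood at 6.04%. In endothelial-like cells the range was 8.12% to 13.1% in the control, with C1qa at 9.94%, and 13.8% to 21.6% in the mutant, with C1qa at 15.97%. All 30 values of the 3 chains, over 5 classes and both libraries, lay within the range of the 20 transcripts. The range reached 16.7% and 16.4% in control and mutant choroid plexus epithelium-like cells and 24.5% and 24.6% in the fibroblast-like cluster. Lying within it says little there. In the former the median transcript stood at 1.57% and 1.20% and C1qa at 1.49% and 1.08%. In the latter the median was 8.62% and 6.35% and C1qa 8.01% and 5.67%. In ependymal-like cells the median was 4.57% and 3.92% and C1qa 5.51% and 3.87%. C1qb made up 36.1% and 36.6% of C1q UMIs in astrocyte-like cells and 36.7% and 36.3% in choroid plexus epithelium-like cells, nearer to microglia-like than to BAM-like cells. The other chains did not always go this way. C1qa made up 41.5% (38.1 to 44.9) and 36.8% in ependymal-like cells and 40.7% (37.2 to 44.4) and 39.3% in the fibroblast-like cluster. These control shares were nearer to BAM-like cells, with intervals that also hold the microglia-like share. C1qc made up 23.3% (20.7 to 26.05) and 25.1% (23.2 to 27.0) in endothelial-like cells. No chain stood above the highest of the 20 transcripts in these 5 classes. C1q outside macrophages is treated here as background, which was not tested.

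**Figure D3:**
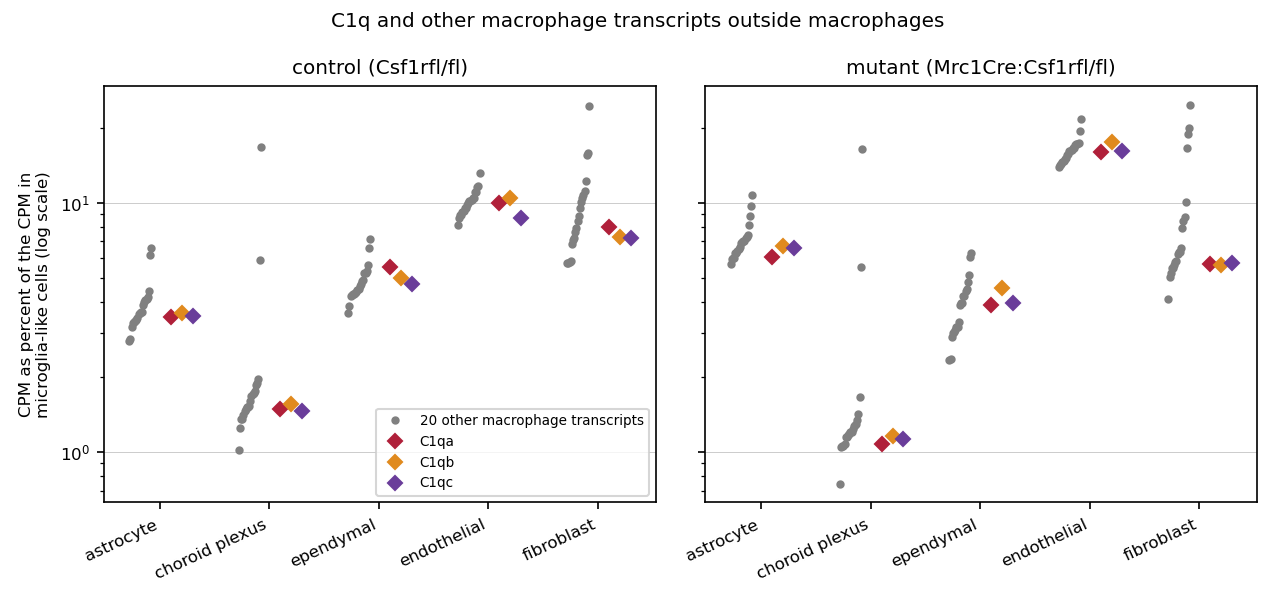
Level of C1qa, C1qb and C1qc (diamonds) and of 20 other macrophage transcripts (grey) in 5 classes, as percent of the level in microglia-like cells of the same library (log axis). Every C1q value lies within the spread of the grey points; the highest grey point in choroid plexus epithelium-like cells, at 16.7% and 16.4%, is Ctsd.

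C1q outside macrophages differed between genotypes, and in 3 classes the C1qa ratio was nearer to 1 in cells with few microglial marker UMIs. In astrocyte-like cells C1qa stood at 271 and 476 CPM in control and mutant, a ratio of 1.75 (1.62 to 1.90), and C1qb and C1qc had ratios of 1.82 and 1.82. In endothelial-like cells C1qa stood at 775 and 1258 CPM, a ratio of 1.62 (1.44 to 1.83), with 1.65 for C1qb and 1.80 for C1qc. In choroid plexus epithelium-like cells C1qa stood at 116 and 84.7 CPM, a ratio of 0.730 (0.678 to 0.787), which did not pass 1.5-fold. In cells with under 10 microglial marker UMIs, C1qa stood at 136 and 130.2 CPM in astrocyte-like cells, 280.1 and 298 CPM in endothelial-like cells and 71.4 and 67.1 CPM in choroid plexus epithelium-like cells. The ratios there were 0.959 (0.820 to 1.12), 1.07 (0.838 to 1.36) and 0.939 (0.855 to 1.03). The ependymal-like C1qa ratio did not move towards 1, at 0.710 in all cells and 0.676 (0.474 to 0.972) in those with under 10 microglial marker UMIs. In the fibroblast-like cluster C1qc went from 0.765 to 0.532 (0.295 to 0.963), past 1.5-fold, on 24 and 27 UMIs. C1qa stood at 625 and 446 CPM in that whole cluster and at 176 and 141 CPM in its gated cells. The gated ratios were 0.801 for C1qa, 0.808 for C1qb and 0.656 (0.386 to 1.11) for C1qc. Other processing also turned the ratio below 1, to 0.853 for astrocyte-like C1qa with doublets kept and to 0.761 for endothelial-like C1qa with no limit on mitochondrial UMIs. The choroid plexus epithelium-like C1qa ratio turned above 1, to 1.08, with doublets kept.

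Of the 9 genes, 6 were measured in astrocyte-like cells and 6 of 6 were higher in the mutant by 1.5-fold or more, beside 5.57% of 10680 genes (3.62% were lower, 9.19% either). In endothelial-like cells it was 3 of 3, all C1q, beside 5.68% of 4702 genes (5.91% were lower, 11.6% either). The median ratio of the measured genes was 1.82 in astrocyte-like and 1.65 in endothelial-like cells, against 1.02 and 1.002 over all genes. In cells with under 10 microglial marker UMIs the counts were 2 of 5 measured genes, C4b and Cfp, beside 3.93% of 10131 genes higher (8.14% either), and 0 of 3, beside 5.90% of 4151 genes (11.9% either). C3ar1 was no longer measured in the astrocyte-like cells. The macrophage markers differed with them, and their part in these counts was not tested: the summed microglial list stood at 889 CPM in control and 1529 CPM in mutant astrocyte-like cells, and at 2358 and 3388 CPM in endothelial-like cells.

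**Figure D4:**
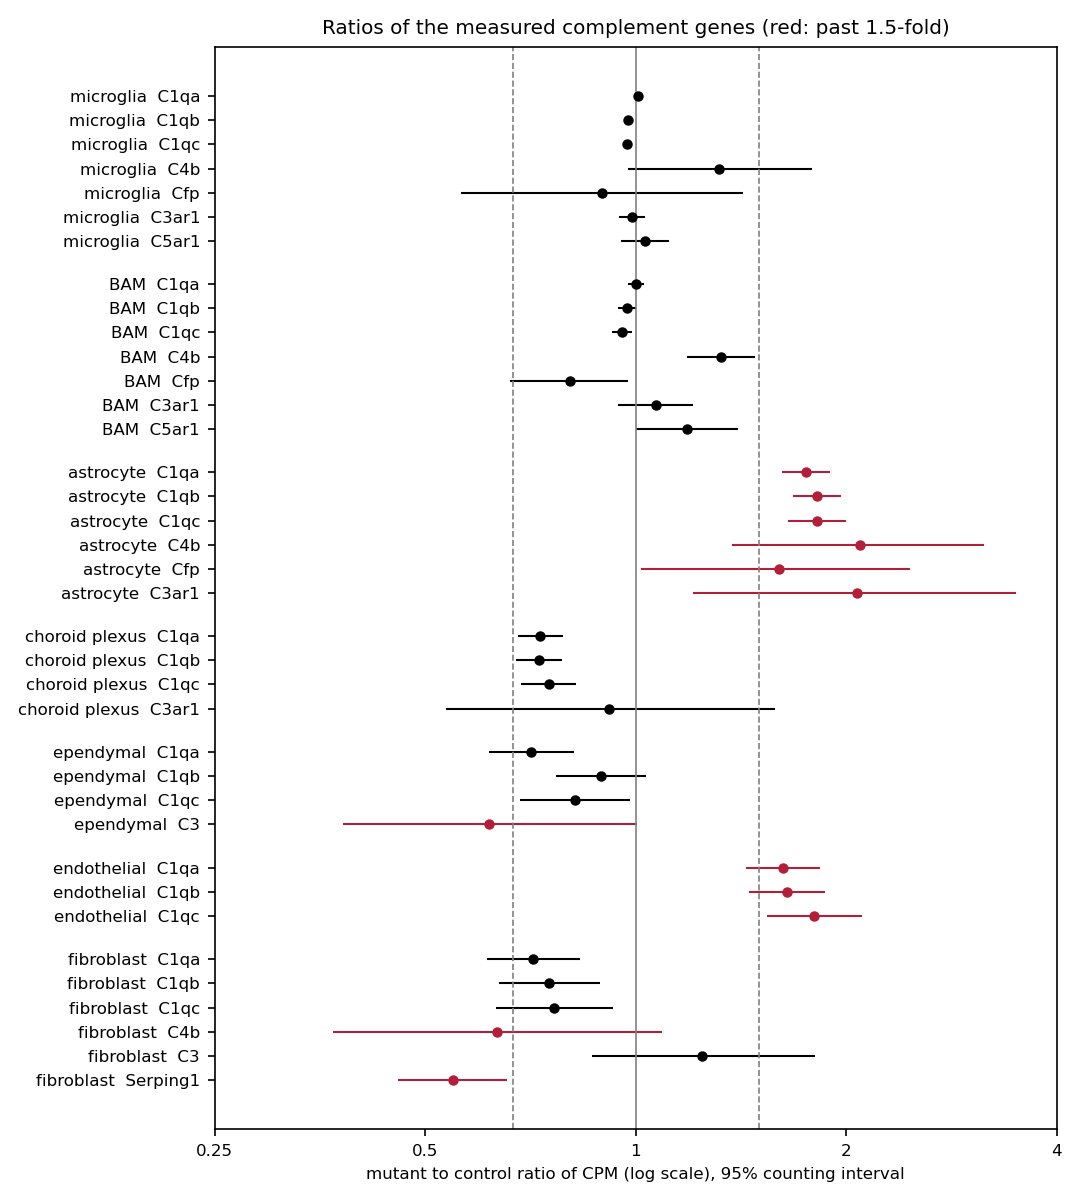
Mutant to control ratio of CPM (log axis) with its 95% counting interval for each measured complement gene of a class; dashed lines mark 1.5-fold in either direction and red marks ratios past it. No ratio is past the lines in microglia-like or BAM-like cells, and all 6 are in astrocyte-like cells.

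C4b, the component cleaved by the activated C1 complex, was read among the macrophages mainly in BAM-like cells. Its level was 325 CPM (306 to 345) in control and 430.1 CPM (391 to 472) in mutant BAM-like cells, and 2.54 and 3.34 CPM in microglia-like cells. It was found in 59.8% and 62.6% of BAM-like cells. Its ratio in BAM-like cells was 1.32 (1.18 to 1.48), within 1.5-fold. In the 249 control and 92 mutant BAM-like cells that passed the gate on each cell it was 333 and 524 CPM, a ratio of 1.57 (1.40 to 1.77), which was past it. Over 11 alternatives the ratio ranged from 1.27 to 1.57 and was past 1.5-fold in 2.

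In astrocyte-like cells, known to make C4, C4b stood at 9.64 CPM (7.44 to 12.3) in control and 20.2 CPM (14.4 to 27.5) in mutant, from 65 and 40 UMIs in 50 and 26 cells. The ratio was 2.09 (1.38 to 3.15) and was past 1.5-fold in 12 of 12 alternatives, from 1.87 to 2.47. In cells with under 10 microglial marker UMIs it was 10.1 and 23.01 CPM. Set against BAM-like cells, the 10 BAM markers stood at 0.0692% to 0.617% of their BAM-like level in control astrocyte-like cells and at 0% to 1.44% in mutant ones, while C4b stood at 2.97% and 4.69%. In the fibroblast-like cluster C4b was at 58.1 CPM (28 UMIs) in control cells and 36.8 CPM (32 UMIs) in mutant cells, and in its gated cells at 38.8 and 32.7 CPM, with 13 UMIs in each. In choroid plexus epithelium-like cells it was at 0.511 and 0.578 CPM.

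C3, the central component of all pathways, was found in few cells of most classes. Microglia-like cells held 25 UMIs in the control and 21 in the mutant, or 0.804 and 0.669 CPM, in 14 and 15 cells. Microglial cluster 6 was highest in both libraries, at 5.83 and 2.27 CPM. BAM-like cells held 16 and 3 UMIs, or 4.85 and 2.85 CPM. Astrocyte-like cells held 0 and 1 UMI and endothelial-like cells 0 in both, which allows up to 5.90 CPM in control and 4.70 CPM in mutant endothelial-like cells at a floor of 3 counts.

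The highest C3 level by class, 93.4 and 116 CPM in the fibroblast-like cluster of control and mutant, did not come from fibroblast-marked cells. Its 146 UMIs lay in 10 of the 119 cells, 3 control and 7 mutant, and 0 of the 10 passed the fibroblast gate. Of the 10, 5 passed the neutrophil gate, 3 the microglial gate and 1 the monocyte or dendritic cell gate, and 1 passed none. Summed over these cells, which were picked by their C3, the RNA had the neutrophil genes S100a8 at 82648 CPM and S100a9 at 85646 CPM and the ficolin gene Fcnb at 934 CPM, with Dcn at 0. In the 82 gated fibroblast-like cells C3 was at 0 UMIs, which allows up to 8.95 CPM in control and 7.55 CPM in mutant cells at the floor of 3 counts. Ependymal-like cells held C3 at 41.8 CPM (28.9 to 58.4) in 6 of 47 control cells and 25.8 CPM (18.4 to 35.1) in 17 of 87 mutant cells. Here 1 of 4 measured genes was past 1.5-fold, C3 at 0.618 (0.381 to 1.01), beside 10.0% of 7131 genes (4.15% higher and 5.89% lower). A single control cell held 22 of the 34 control UMIs, and without the highest cell of each library the levels were 15.3 and 20.9 CPM.

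Cfp, the gene of properdin, was like C4b highest in BAM-like cells. Its level was 158 CPM (145 to 172) in control and 127 CPM (107 to 151) in mutant BAM-like cells and 1.35 and 1.21 CPM in microglia-like cells. It was present in 54.1% and 42.6% of BAM-like cells, and the ratio was 0.805 (0.660 to 0.975), within 1.5-fold under all 11 alternatives (0.689 to 0.858). The fibroblast-like cluster held 10.4 and 14.95 CPM, from 5 and 13 UMIs, and its gated cells 5.97 and 5.04 CPM, from 2 UMIs in each library. Astrocyte-like cells, whose interval overlaps that of the cluster, stood at 10.1 CPM (7.84 to 12.8) and 16.2 CPM (11.05 to 22.8), from 68 UMIs in 61 control cells and 32 UMIs in 30 mutant cells. That was 6.38% and 12.7% of the BAM-like level, above all 10 BAM markers. The ratio was 1.60 (1.02 to 2.47), and 1.74 (1.07 to 2.77) in cells with under 10 microglial marker UMIs. The comparison with BAM markers covers BAM-like cells as a source only. These held 73.8% of the Cfp UMIs of kept control cells and 38.7% of those of the mutant. Unnamed cells held 8.35% and 33.8%, and RNA from them was not tested. Choroid plexus epithelium-like cells held 0.681 and 0.578 CPM, and the ependymal-like and endothelial-like classes 1 or 2 UMIs per library.

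The receptors of the anaphylatoxins were highest in the macrophage classes. C3ar1 stood at 315 CPM (296 to 334) in control and 336 CPM (302 to 373) in mutant BAM-like cells, and at 141 CPM (136 to 145) and 139 CPM (135 to 143) in microglia-like cells. C5ar1 stood at 159 CPM (146 to 174) and 189 CPM (164 to 217) in BAM-like cells, and at 38.2 CPM (36.1 to 40.4) and 39.4 CPM (37.2 to 41.7) in microglia-like cells. In both libraries BAM-like cells thus had the higher level of both receptors, and the intervals of the classes did not overlap. The ratios between genotypes were 1.07 and 0.987 for C3ar1 and 1.19 and 1.03 for C5ar1 in BAM-like and microglia-like cells.

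Among microglial clusters both receptors were highest in cluster 6, led by Cd52, Cd68 and Ctss. C3ar1 there was at 238 CPM in control cells and 198 CPM in mutant cells, a ratio of 0.835 (0.761 to 0.916), and C5ar1 at 60.96 and 50.6 CPM. The next highest cluster had 135 and 139 CPM of C3ar1 and 37.95 and 39.1 CPM of C5ar1. With another clustering seed both were again highest in a cluster led by Ctss, Trem2 and Cd68, with C3ar1 at 173 and 183 CPM, so that the direction between genotypes turned. Outside macrophages the receptors had few UMIs: C3ar1 in astrocyte-like cells had 41 and 25, a ratio of 2.07 (1.21 to 3.49), but 18 and 3 in cells with under 10 microglial marker UMIs, where the ratio was 0.560 (0.106 to 1.92).

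**Figure D5:**
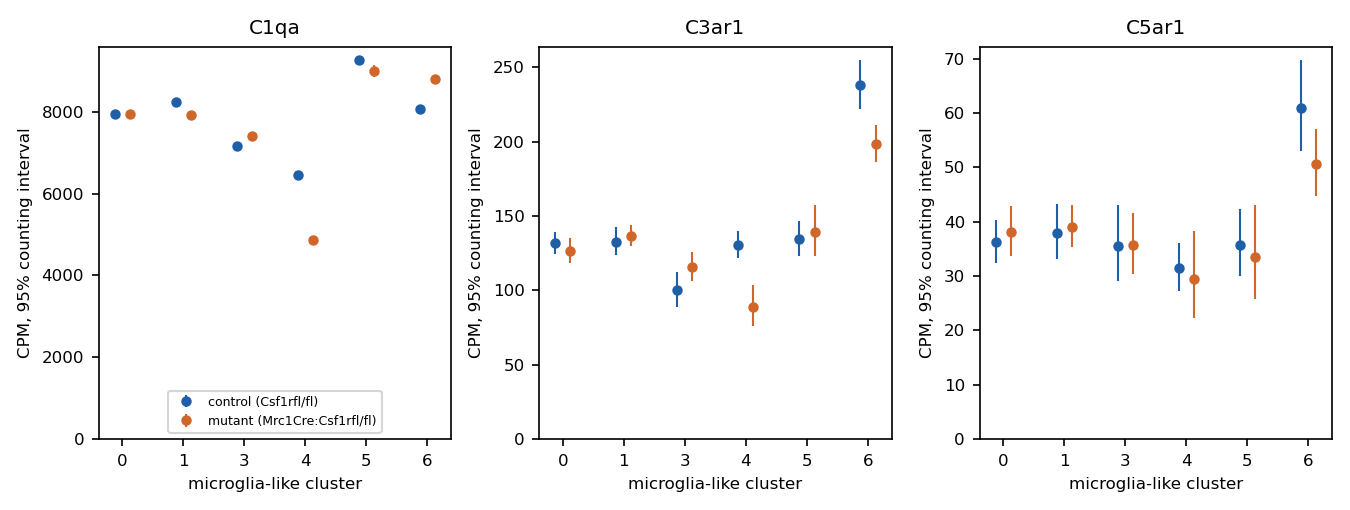
CPM with 95% counting intervals of C1qa, C3ar1 and C5ar1 in the 6 microglia-like clusters of the control (blue) and mutant (orange) library. C3ar1 and C5ar1 are highest in cluster 6 of both libraries (238 and 198 CPM, 60.96 and 50.6 CPM), and C1qa is lowest in cluster 4.

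Serping1, the gene of the C1 inhibitor, was the one gene of the 9 with its highest level in cells that passed the fibroblast gate. In the whole fibroblast-like cluster it stood at 527 CPM (465 to 596) in control and 289 CPM (254 to 327) in mutant, found in 81.2% and 49.3% of cells. The ratio of 0.547 (0.458 to 0.654) made Serping1, with C4b at 0.633 (0.369 to 1.09), 2 of 6 measured genes lower by 1.5-fold or more, beside 17.3% of 4863 genes of that mixed class (12.6% were higher, 29.9% either). In its gated cells the level was 677 CPM (592 to 771) in 36 of 38 control cells and 624 CPM (549 to 707) in 33 of 44 mutant cells. The ratio there was 0.922 (0.767 to 1.11). The gate passed 38 of 48 control and 44 of 71 mutant cells of the cluster, and the ratio ranged from 0.390 to 1.05 over the alternatives.

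Cluster 8, left unnamed and picked here after its level was seen, also carried Serping1. Its leading genes were Mgp, Slc4a10, Ccn3, Igfbp5 and Slc47a1, and it had 138 control and 425 mutant cells. Serping1 was at 187 and 185 CPM in control and mutant, in 56.5% and 64.2% of cells, a ratio of 0.990 (0.873 to 1.12). C4b in that cluster was at 26.8 and 9.29 CPM, from 47 and 51 UMIs, a ratio of 0.346 (0.228 to 0.526). Ependymal-like cells held Serping1 at 13.5 and 13.5 CPM, choroid plexus epithelium-like cells at 1.36 and 1.62 CPM, and microglia-like cells 4 and 16 UMIs. BAM-like cells held 4 UMIs in the control and 0 in the mutant, which allows up to 2.85 CPM. Serping1 was thus at or near 0 in both macrophage classes.

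In choroid plexus epithelium-like cells 0 of 4 measured genes were past 1.5-fold, beside 4.96% of 10775 genes (2.26% higher and 2.70% lower), with a median ratio of 0.741 against 1.02 over all genes. In ependymal-like cells the median was 0.764 against 0.991, and in the fibroblast-like cluster 0.733 against 0.917.

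Over the 7 classes in both libraries, 14 points that share library and depth, some genes had like patterns. The log2(CPM + 1) values of C1qa and C1qc had Pearson's r of 0.999, C3ar1 and C5ar1 had r = 0.954, and C4b and Cfp had r = 0.921. Among 11685 genes, those nearest to C1qa were Marchf1, Hpgds and Aif1 (highest r = 0.996), and those nearest to C1qb Cd300c2, Marchf1 and Hpgds. C1qc was nearest to Marchf1, Hpgds and Cd300c2, C3ar1 to Ccl12, Cd68 and Hpgd, and C5ar1 to Ms4a6c, Phf11b and Dhrs3. C4b was nearest to Rab7b, Plxnc1 and Myo5a (highest r = 0.917), and Cfp to Dram1, Ms4a4a and Slc26a11 (highest r = 0.921). Serping1 was nearest to Slc22a2, Cd177 and Ebf2, and C3 to Osr1, Col26a1 and Tpx2, with the mixed fibroblast-like cluster as the highest point for both.

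Of 50 further genes of the pathway, 49 were listed in the files. In BAM-like cells 7 of 16 measured genes were past 1.5-fold, beside the 10.4% of all genes. The 3 higher in the mutant were Fcna, the pattern-recognition molecule ficolin A of the lectin pathway, at 124 and 273 CPM (ratio 2.21, 1.90 to 2.58), the convertase inhibitor Cd55 at 26.7 and 57.9 CPM and the receptor Cd93 at 82.996 and 155 CPM. Of the 4 lower, C2, the partner of C4 in the classical C3 convertase, was at 70.3 and 44.6 CPM (ratio 0.635, 0.454 to 0.872), C5ar2, the second C5a receptor, at 46.04 and 29.4 CPM, clusterin, Clu, at 34.5 and 21.8 CPM, and the cofactor Cd46 below 20 CPM. In microglia-like cells 3 of 21 were past it, beside 7.0% of all genes: Clu at 37.3 and 21.7 CPM (ratio 0.583, 0.529 to 0.641), and, each below 20 CPM, Colec12 with a ratio of 0.364 and Vtn with 2.97.

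In choroid plexus epithelium-like cells 3 of 14 measured genes of this list were past 1.5-fold, beside 4.96% of all genes, all lower, among them Csmd3 at 21.8 and 9.89 CPM and Itgam. In ependymal-like cells 3 of 11 were, beside 10.0% of all genes, all lower, among them Hc, the gene of C5, at 71.3 and 43.2 CPM, and the regulator Cr1l at 31.9 and 20.6 CPM. In endothelial-like cells 2 of 8 were, beside 11.6%, among them Itgam, a chain of complement receptor 3, at 43.3 and 87.7 CPM. In astrocyte-like cells 5 of 16 were, beside 9.19%, among them Itgam at 12.9 and 26.2 CPM. Itgam, which microglia carry, was higher there as the C1q genes were.

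In the fibroblast-like cluster 6 of 11 were past 1.5-fold, beside 29.9% of all genes of that cluster. Vitronectin, Vtn, a blocker of the terminal complex, was at 3902 and 578 CPM in the cluster and at 5515 and 1218 CPM in its gated cells. Colec12, a collectin receptor, was at 721 and 473 CPM, but at 862 and 894 CPM in gated cells. Fcnb, at 68.5 and 359 CPM, was at 0 UMIs in the gated cells. Clu was at 60.2 and 181 CPM in the cluster and 71.6 and 156 CPM in gated cells, and Csmd3 at 139 and 70.2 CPM in the cluster. Of the rest, the best covered were Calr in microglia-like cells at 844 and 782 CPM, Itgam there at 437 and 503 CPM, Csmd3 there at 1901 and 2231 CPM, Cd93 in endothelial-like cells at 462 and 459 CPM, and Clu in ependymal-like cells at 2825 and 2901 CPM. Of the other components of the alternative and terminal pathways, Cfb reached 2.85 CPM in mutant BAM-like cells, Cfd 0.0322 CPM, C8g 9.83 CPM in control ependymal-like cells and C6 8.05 CPM in the mutant fibroblast-like cluster.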

How the data were processed

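Single-cell RNA libraries of sorted whole-brain cells, 1 per genotype, were made with the 10x Next GEM 3′ v3.1 chemistry, per the labels. As deposited, the values are unnormalized UMI counts of each gene in each barcode, made with Cell Ranger 7.1.0 per the file headers. The submitters' processing notes name the builds GRCm38.p6 and mm10. Whether introns were counted or free RNA corrected is not stated in these sources. Barcodes needed 500 genes and no more than 10% mitochondrial UMIs, and doublets called by Scrublet (scanpy 1.11.5), 2.70% of control and 2.64% of mutant barcodes, were removed. That left 5600 control and 6117 mutant cells. Before filtering, the libraries shared 17 barcode sequences. Both were clustered together (2000 variable genes, 30 principal components, 15 exact neighbours, Leiden resolution 1, 25 clusters) without the 9 complement genes, sex-linked or mitochondrial genes. A cluster took a name when 3 or more of the markers each had a UMI in 25% or more of its cells and no other class competed, but not when it was shallow and none of its markers led it. Rebuilt classes can differ from those of the study.

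UMIs were summed per class and library. With 1 library per genotype there is no test and no p-value. Intervals are exact Poisson for CPM, exact Clopper-Pearson for shares and exact conditional for ratios, at 95%, and cover counting error only. Gene locations are from GENCODE M21. The gene lists and the 9 genes were chosen with earlier results of these data known. Named genes were the 9, the 3 other complement genes per role with the highest CPM, those past 1.5-fold at 50 UMIs and 20 CPM or more in a class, and 3 pattern neighbours for each of the 9, and any other is said to be chosen later. The alternatives were 9 other settings, plus 3 settings (2 restricted sets of cells and another clustering seed) and 1 check on the BAM marker list that were chosen after seeing the data, as were the promoter motifs. The ratio calculation was tested on simulated data. Some genes that the rule names are not reported here.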

Additional observations from a re-analysis of the deposited data

Results flagged for a closer look

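The mutant to control ratios of C4b lay on opposite sides of 1 in 2 classes. The ratio was 2.09 (1.38 to 3.15) in astrocyte-like cells, from 65 and 40 UMIs. In the fibroblast-like cluster it was 0.633 (0.369 to 1.09), from 28 and 32 UMIs. That interval spans 1, and the cluster's ratio was 1.07 with each library clustered alone. The difference between these ratios was not tested, since there is 1 library per genotype. In the gated fibroblast-like cells the ratio was 0.844 (0.360 to 1.98), and C4b also shares part of its sequence with C4a.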

How the results depend on the processing

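Over 12 alternatives, 428 ratios of the complement genes were recomputed: 312 stayed within their counting interval, 97 moved beyond it, 19 that had been past 1.5-fold crossed 1, and 68 changed their side of 1.5-fold. The number of genes past 1.5-fold, 0 in microglia-like and BAM-like cells, became 1 in microglia-like cells under the gate on each cell, with each library clustered alone and at a minimum of 20 UMIs, and 1 in BAM-like cells under either gate (C4b). In astrocyte-like cells 6 became 2 under either gate, under 10 microglial marker UMIs, with doublets kept and with equal weight per cell. In endothelial-like cells 3 became 0 under either gate, under 10 microglial marker UMIs, at 1000 genes per cell, at resolution 2, with equal weight per cell and with no mitochondrial limit. In ependymal-like cells 1 became 0 under 10 microglial marker UMIs, with doublets kept and with equal weight per cell, and 2 at 20 UMIs and with no mitochondrial limit. In the fibroblast-like cluster 2 became 1 under either gate, at 1000 genes per cell, centred on the median ratio, with doublets kept and with each library clustered alone, 0 with equal weight per cell and 4 with no mitochondrial limit. Choroid plexus epithelium-like cells kept a count of 0 under all of these, and another clustering seed moved no count by over 1.5 times.

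Among ratios that had been past 1.5-fold, those that crossed 1 were C1qa, C1qb and C1qc in endothelial-like cells (0.994, 0.950 and 0.907 under the gate on each cell, and 0.761, 0.832 and 0.872 with no mitochondrial limit). C1qb and C1qc there were 0.967 and 0.894 under the gate within the class and 0.979 and 0.943 under 10 microglial marker UMIs. In astrocyte-like cells C1qa, C1qb and C1qc were 0.853, 0.922 and 0.871 with doublets kept, and C1qa, C1qc and C3ar1 were 0.959, 0.982 and 0.560 under 10 microglial marker UMIs. C3 in ependymal-like cells was 1.37 there. C4b and Serping1 in the fibroblast-like cluster were 1.07 and 1.05 with each library clustered alone. Ratios that had been within 1.5-fold also crossed 1, among them those of C1qa, C1qb and C1qc. In the fibroblast-like cluster these went from 0.714, 0.752 and 0.765 to 1.70, 1.98 and 2.03 with no mitochondrial limit, past 1.5-fold. In ependymal-like cells they were 1.04, 1.29 and 1.21 under that setting. In choroid plexus epithelium-like cells they were 1.08, 1.07 and 1.16 with doublets kept. Beyond the cells each setting keeps, the cause was not tested. Of the 30 C1q values outside macrophages, 24 could be set against other transcripts in cells with 0 microglial marker UMIs. All 24 lay within their range, at 1 to 37 cells per class. Only 12 reference transcripts were left, and many ranges were wide. They ran from 0% to 18.9% in 3 control endothelial-like cells and from 0% to 16.8% in 13 control choroid plexus epithelium-like cells. Lying within such a range was close to assured, so this check decides little. No paired analysis was possible because each genotype has 1 library. Depth limits the endothelial-like and fibroblast-like classes most: 3 counts stand for 5.90 and 4.70 CPM in the former and 6.23 and 3.45 CPM in the latter, in control and mutant.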

Other observations

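Cluster 13 stayed unnamed because it carried both microglial and monocyte or dendritic cell markers. It was led by the antigen presentation genes Cd74, H2-Aa and H2-Eb1, also held Lyz2 and Ccr2 among its leading genes, and had 73 control and 73 mutant cells. Properdin, Cfp, was at 35.5 and 85.2 CPM there in control and mutant, from 34 and 84 UMIs in 16.4% and 43.8% of cells, a ratio of 2.40 (1.59 to 3.69). C1qa was at 5858 and 3596 CPM, a ratio of 0.614 (0.589 to 0.640), and C3ar1 at 268 and 166 CPM, a ratio of 0.620 (0.507 to 0.757). C3 was at 33.4 and 38.5 CPM, above its level in microglia-like and BAM-like cells of both libraries. C5ar1 was at 49.1 and 49.7 CPM. The makeup of the cluster in each library was not separated, and its part in these values was not tested.

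Cluster 23 carried 7 of 7 pericyte markers beside smooth muscle ones and was left unnamed, with 13 control and 11 mutant cells. It held 4 and 2 Serping1 UMIs, or 59.4 and 83.1 CPM. With no limit on mitochondrial UMIs a pericyte-like class of 21 control and 34 mutant cells could be named, and Serping1 there had 3 and 2 UMIs, or 42.1 and 36.4 CPM.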
